A study of Homo sapiens with 6 samples.

Results

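The core circadian clock is a set of 10 genes here, CLOCK, BMAL1 (also written ARNTL) and RORA as the activator arm and PER1, PER2, PER3, CRY1, CRY2, NR1D1 and NR1D2 as the repressor arm. Members were taken by gene symbol, as every probe set that the platform annotation assigns to 1 of these genes alone. This gave 24 probe sets of 54613 and 8 of the 10 genes, out of 19775 genes with such a probe set. All 4 probe sets of PER1 and all 3 of NR1D1 also name another gene, so PER1 and NR1D1 were not analysed here. The cells were ARPE-19, an established human line from retinal pigment epithelium, grown in medium with 10% serum. Total RNA came from 3 samples given SRPIN803 at 10 µM and 3 given the solvent alone (0.1% DMSO), each for 4 h, and was hybridised to Affymetrix 3' arrays after labelling of 100 ng. SRPIN803 is known as an inhibitor of the kinases SRPK1 and CK2. All 6 arrays come from 1 cell line, the labels name no time of day and no step that aligns the cells' clocks and they leave unsaid whether replicates were separate cultures. The p-values therefore reflect the spread among these 6 samples, which may be technical.

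In the clock, CLOCK and BMAL1 form a dimer that binds E-box sequences and switches on the PER, CRY and NR1D genes. PER and CRY proteins return to the nucleus and inhibit the dimer, and they are marked for turnover by kinases of the casein kinase families. NR1D1 and NR1D2 (REV-ERB alpha and beta) repress BMAL1 at sites called ROREs, where the activator RORA competes with them. PER genes are also induced quickly, outside the rhythm, by serum, glucocorticoid and cyclic AMP signals. The retinal pigment epithelium has a clock of its own.

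The promoters of the 3 genes that passed the test are shown because they carry the sequence classes through which the arms are known to act on each other. Each is a window of 300 bases from RefSeq (GRCh38.p14), read 5′ to 3′ on the gene's strand, that runs from upstream of a listed gene start to just past it. Bases are counted from 1 at the window's 5′ end. Capitals mark exact matches, on either strand, to the E-box CACGTG, its variant CACGTT, the D-box TTANGTAA, or the RORE cores TAGGTCA and TGGGTCA. BMAL1 lies on the plus strand at chr11:13277540-13277839, PER2 on the minus strand at chr2:238288561-238288860 and NR1D2 on the plus strand at chr3:23945871-23946170.
BMAL1: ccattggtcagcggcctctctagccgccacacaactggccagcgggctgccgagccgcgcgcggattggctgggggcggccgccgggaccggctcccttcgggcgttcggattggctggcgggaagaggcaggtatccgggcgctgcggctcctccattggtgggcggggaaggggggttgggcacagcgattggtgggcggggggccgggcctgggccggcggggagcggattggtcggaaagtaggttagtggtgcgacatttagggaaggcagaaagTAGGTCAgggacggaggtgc
PER2: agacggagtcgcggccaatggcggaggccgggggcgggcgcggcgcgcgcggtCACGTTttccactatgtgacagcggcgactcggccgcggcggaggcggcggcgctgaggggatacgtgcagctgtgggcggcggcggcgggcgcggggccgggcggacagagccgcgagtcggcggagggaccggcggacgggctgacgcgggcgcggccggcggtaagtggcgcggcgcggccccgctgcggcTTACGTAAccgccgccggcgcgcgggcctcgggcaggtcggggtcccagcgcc
NR1D2: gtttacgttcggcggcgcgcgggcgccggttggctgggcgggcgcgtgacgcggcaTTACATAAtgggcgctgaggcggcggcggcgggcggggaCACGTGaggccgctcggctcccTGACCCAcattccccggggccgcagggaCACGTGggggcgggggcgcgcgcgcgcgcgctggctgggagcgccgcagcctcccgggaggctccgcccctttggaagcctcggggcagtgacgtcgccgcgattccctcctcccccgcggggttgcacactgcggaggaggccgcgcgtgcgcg
The BMAL1 window held 1 match, the RORE core TAGGTCA at base 281 of the window. The PER2 window held the E-box variant CACGTT at base 54 and a D-box at base 248. The NR1D2 window held 2 E-boxes, at bases 96 and 146, a D-box at base 57 and the RORE core TGGGTCA on the other strand at base 118. BMAL1 and NR1D2 each have 1 further listed window, with no match, and the windows shown were chosen for holding one.

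Over all 10 genes, including PER1 and NR1D1, 15 windows were listed. CACGTG was in 2 of the 15, against 7.23% of 34943 windows of all genes, and CACGTT in 5 of 15, against 5.35%. The D-box was in 3 of 15, against 2.19%, TAGGTCA in 2, against 1.85%, and TGGGTCA in 2, against 3.91%. Both genes with the 6-base CACGTG, PER1 and NR1D2, were of the repressor arm, which holds most of the 10 genes. These are letter matches, not measured binding sites.

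At 4 h the repressor genes PER2 and NR1D2 were higher with SRPIN803 and the activator BMAL1 was lower, by 1.57- to 1.73-fold. PER2 rose 1.73-fold (95% confidence interval 1.48 to 2.04), NR1D2 rose 1.63-fold (1.43 to 1.87) and BMAL1 fell 1.57-fold (1.31 to 1.88). CLOCK, RORA, CRY1, CRY2 and PER3 did not pass the threshold. Probe sets were compared with limma on the deposited log2 values, and called at a Benjamini-Hochberg adjusted p under 0.05 over all probe sets. Of the 24 clock probe sets 2 were called higher, where 1.19% of all probe sets were, and 1 was called lower, where 1.03% were. In either direction 2.22% of all probe sets were called. The groups did not overlap in 7 of the 24, against 21.5% of all probe sets.

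**Figure D1:**
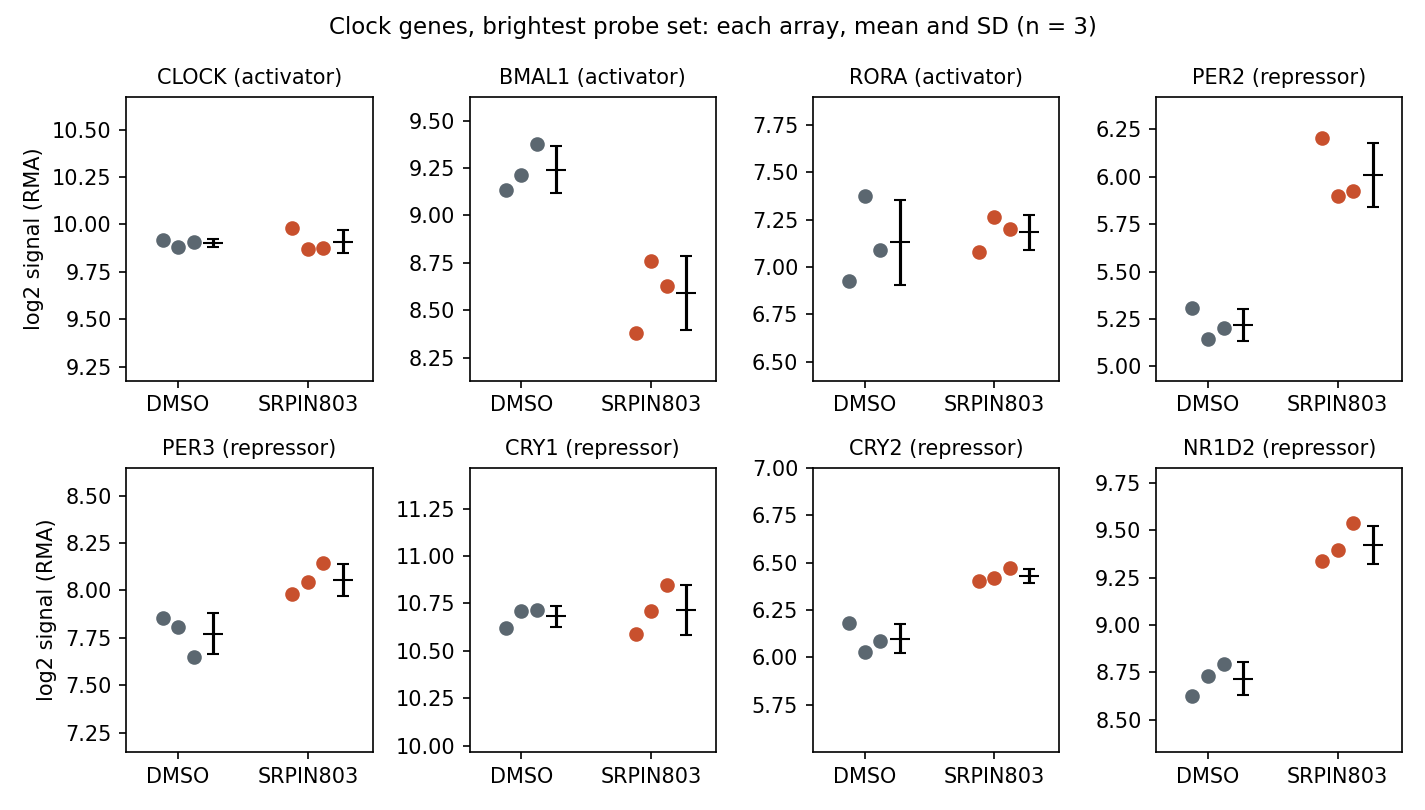
Log2 RMA signal of the brightest probe set of each of the 8 clock genes, with a point per array (DMSO grey, SRPIN803 orange) and the mean with SD (n = 3) as a bar beside them. Each axis spans the same range of log2 units around its gene. BMAL1, PER2, PER3, CRY2 and NR1D2 have groups that do not overlap, while CLOCK, RORA and CRY1 overlap.

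Counts were set side by side for the arms. In the repressor arm 9 of 10 probe sets had a higher mean with SRPIN803, 2 were called higher and 0 lower, with 5 higher and 0 lower at an unadjusted p under 0.05 in limma. In the activator arm 6 of 14 had a higher mean, 0 were called higher and 1 lower, with 0 higher and 2 lower at an unadjusted p under 0.05. Over all probe sets 8.17% were higher and 7.47% lower at an unadjusted p under 0.05. The median log2 change was 0.23 in the repressor arm and -0.02 in the activator arm, beside 0.0054 over all probe sets, of which 28228 had a higher mean. With the brightest probe set of each gene alone the medians were 0.33 for the 5 repressor genes and 0.0070 for the 3 activator genes, beside 0.02 over all genes, so the activator median changed sign. Probe sets of 1 gene share its transcripts and RORA alone holds 8 of the activator arm's 14, so these counts describe the arms and are not independent observations. The counts of higher means include small changes whose sign turned in some alternatives. In the repressor arm these were PER2 208518_s_at, PER3 1555131_a_at, CRY1 209674_at and NR1D2 209750_at, and in the activator arm probe sets of CLOCK and RORA.

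BMAL1 encodes the partner of CLOCK and is the member of the dimer whose transcript is known to cycle. Its brightest probe set, 209824_s_at, read 9.14, 9.21 and 9.38 (log2 signal) in the DMSO samples and 8.38, 8.76 and 8.63 in the SRPIN803 samples. Every SRPIN803 sample lay below every DMSO sample, and SRPIN803 replicate 1 was the lowest. The log2 change was -0.65 ± 0.11 (limma standard error), with adjusted p = 0.0315. The other BMAL1 probe set, 210971_s_at, read 6.93, 7.05 and 7.31 in DMSO and 6.34, 6.78 and 6.48 in SRPIN803. It had the same order of groups, without overlap, and a log2 change of -0.56 ± 0.14 (adjusted p = 0.0910). The call of 209824_s_at was lost when any 1 array other than SRPIN803 replicate 2 was left out, with log2 changes of -0.70 to -0.55 and limma's adjusted p of 0.0644 to 0.127. The direction held in each of those fits.

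CLOCK encodes the other partner of the dimer, and its transcript is known to be nearly flat over the day. Its brightest probe set, 227531_at, read 9.92, 9.88 and 9.91 in DMSO and 9.98, 9.87 and 9.87 in SRPIN803 (log2 signal). The groups overlapped, and the log2 change was 0.0070 with a 95% interval of -0.15 to 0.16. The 3 other CLOCK probe sets were at -0.15, -0.08 and -0.01, the last on a dim probe set (217563_at, mean level 3.50, where the median over all probe sets is 5.26). The sign of 227531_at and of 217563_at turned in some alternatives, so no direction can be read for them.

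RORA encodes the orphan receptor that activates BMAL1 through ROREs. Its brightest probe set, 226682_at, read 6.93, 7.37 and 7.09 in DMSO and 7.08, 7.26 and 7.20 in SRPIN803 (log2 signal). The SRPIN803 values fell inside the DMSO range, and the log2 change was 0.05 with an interval of -0.22 to 0.33. The other 7 probe sets of RORA had log2 changes from -0.29 to 0.11, all with overlapping groups. The lower end was 210479_s_at, read at 5.54, 5.41 and 5.34 in DMSO and 5.25, 4.71 and 5.46 in SRPIN803. SRPIN803 replicate 2 was its lowest array, and without that array its log2 change was -0.08. Of the 8 probe sets 5 lay below the median level of all probe sets.

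PER2 encodes a protein that, with CRY, inhibits CLOCK and BMAL1, and it is both rhythmic and quickly inducible. Probe set 205251_at read 5.31, 5.14 and 5.20 in DMSO and 6.21, 5.90 and 5.93 in SRPIN803 (log2 signal). The lowest treated sample was above the highest control by more than the range within either group. The log2 change was 0.79 ± 0.10, with limma's adjusted p = 0.0115. This probe set lies at the 55.1 percentile of level. The other one, 208518_s_at, at the 24.5 percentile, had overlapping groups and a log2 change of 0.08 ± 0.10. PER2 was no longer called once DMSO replicate 2 (adjusted p = 0.0638) or DMSO replicate 3 (0.0621) was left out, with log2 changes of 0.76 and 0.79 there.

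PER3, a paralog whose product is a weaker repressor, had 4 probe sets. The brightest, 221045_s_at, read 7.85, 7.81 and 7.65 in DMSO and 7.98, 8.04 and 8.15 in SRPIN803 (log2 signal). The groups did not overlap, but the log2 change of 0.29 ± 0.08 did not pass (adjusted p = 0.143). Among the alternatives it passed only in that limited to probe sets at or above the 75th percentile of level (limma's adjusted p = 0.0332). There 1086 of 13654 probe sets were called higher. The dim probe set 1569701_at read 3.50, 3.60 and 3.80 in DMSO and 4.42, 4.38 and 3.92 in SRPIN803, a log2 change of 0.60 ± 0.14 (adjusted p = 0.0841). It also had groups that did not overlap, and it passed without SRPIN803 replicate 3 (adjusted p = 0.0418). The remaining 2, 1555131_a_at and 1555130_at, were at 0.0072 ± 0.0954 and -0.08 ± 0.10 with overlapping groups.

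The cryptochromes CRY1 and CRY2, which bind and silence the dimer, had 1 probe set each. CRY1 read 10.62, 10.71 and 10.72 in DMSO and 10.59, 10.71 and 10.85 in SRPIN803 (log2 signal). The groups overlapped, and the log2 change was 0.03 with an interval of -0.16 to 0.23. CRY2 read 6.18, 6.03 and 6.09 in DMSO and 6.40, 6.42 and 6.47 in SRPIN803. Its groups did not overlap, and the log2 change of 0.33 ± 0.07 missed the threshold over all probe sets (adjusted p = 0.0603). CRY2 passed when each gene was represented by its brightest probe set and fewer tests were adjusted (adjusted p = 0.0262). In that form 3 of the 8 clock genes were called higher and 1 lower, where 3.46% and 2.37% of all genes were. The log2 signal of CRY2 minus that of CRY1 was -4.44, -4.68 and -4.63 in DMSO and -4.18, -4.29 and -4.37 in SRPIN803, without overlap, and this difference was not tested.

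NR1D2 encodes REV-ERB beta, a repressor of BMAL1 and itself a target of CLOCK and BMAL1. Probe set 225768_at read 8.62, 8.73 and 8.80 in DMSO and 9.34, 9.40 and 9.54 in SRPIN803 (log2 signal). All treated samples lay above all controls, with a log2 change of 0.71 ± 0.08 and limma's adjusted p = 0.00933. The call was lost in 1 fit with an array left out, that without DMSO replicate 2 (adjusted p = 0.0526, log2 change 0.71). The second probe set, 209750_at, read 7.55, 7.52 and 7.61 in DMSO and 8.18, 7.10 and 7.95 in SRPIN803. There SRPIN803 replicates 1 and 3 were above all controls and replicate 2 below them, and the log2 change was 0.18 ± 0.24. It was 0.50 without SRPIN803 replicate 2 (adjusted p = 0.0593) and -0.04 without SRPIN803 replicate 1.

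**Figure D2:**
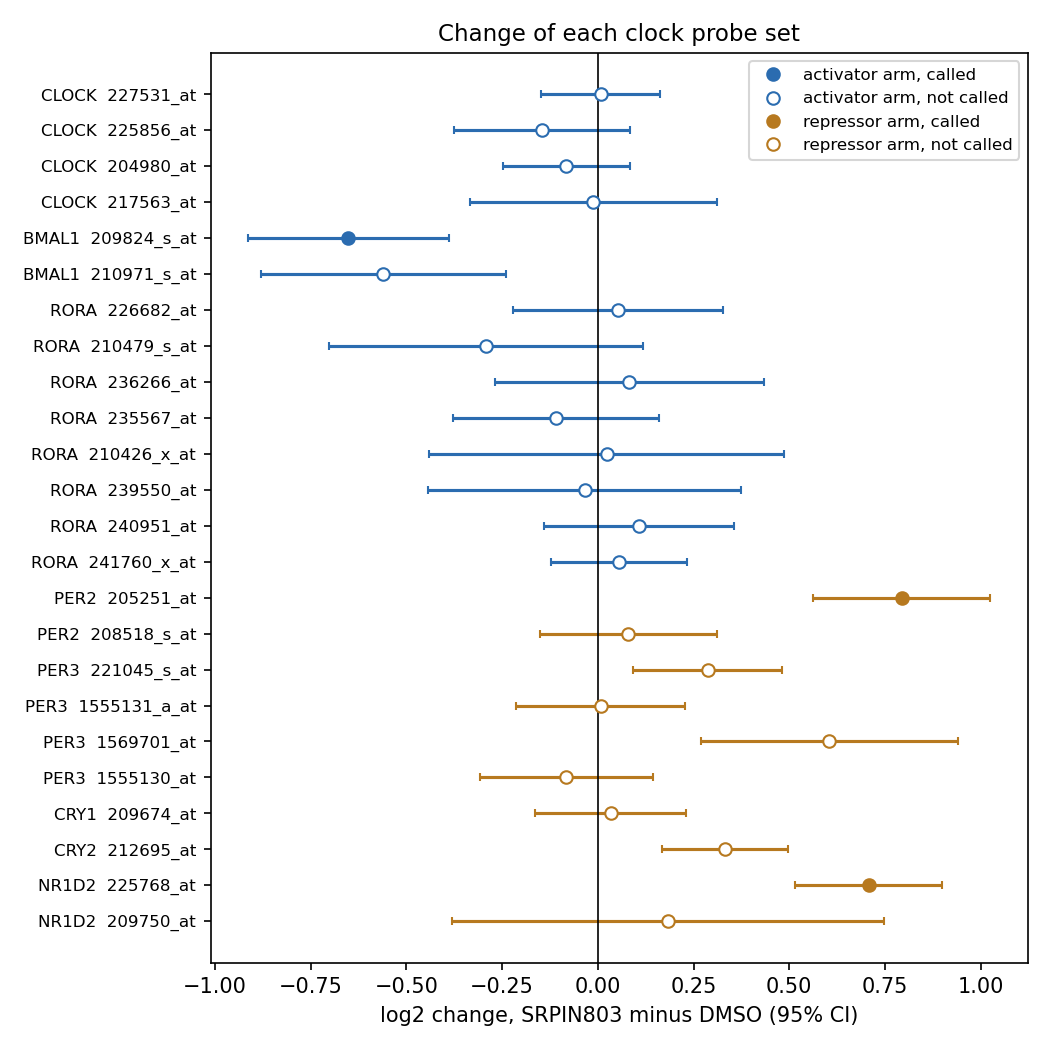
Log2 change (SRPIN803 minus DMSO) of each of the 24 clock probe sets with its 95% confidence interval, activator arm in blue and repressor arm in ochre, filled where the adjusted p was under 0.05. Filled points are 209824_s_at of BMAL1 at -0.65, 205251_at of PER2 at 0.79 and 225768_at of NR1D2 at 0.71, and 9 of 10 repressor points lie right of 0.

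SRPIN803 replicate 2 was the lowest of the 6 arrays in 8 of the 24 clock probe sets, while it was the lowest in 17.0% of all probe sets. SRPIN803 replicate 1 was the highest in 10 of 24, against 17.4% of all probe sets. RNA quality was read from the actin controls on the array, as 5' minus 3' signal, which was -2.16, -1.46 and -1.67 (log2) in the SRPIN803 samples and -1.99, -1.90 and -1.41 in the DMSO samples. The groups overlapped in it, and with it as a covariate PER2, NR1D2 and BMAL1 stayed called (adjusted p = 0.0145, 0.0159 and 0.0134). Actin is 1 transcript, this covariate was added after seeing the data, and RNA quality was not otherwise tested.

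Whether probe sets of 1 gene moved apart was tested with limma's diffSplice on probe sets that reached at least the median level. BMAL1, CLOCK, NR1D2, PER3 and RORA had at least 2 such probe sets. None of the 5 genes passed over all 5535 genes tested, of which 3.36% did, and 1 of the 5, PER3, had an unadjusted p under 0.05 (adjusted p = 0.277). The adjusted p was 0.374 for the NR1D2 pair and 0.852 for the BMAL1 pair. PER2 had 1 probe set above the median level, so its pair was outside that test. With dim probe sets included the PER2 pair moved apart (adjusted p = 0.0227). Its dimmer member, 208518_s_at, lies at the 24.5 percentile of level, and whether the low level has a part in this was not tested. The share of all genes that moved apart in that form is not given here, and a difference between PER2 transcripts was not tested.

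Differences between the called genes were also taken array by array. The log2 signal of NR1D2 (225768_at) minus that of BMAL1 (209824_s_at) was -0.51, -0.48 and -0.58 in the DMSO samples and 0.96, 0.63 and 0.91 in the SRPIN803 samples. PER2 (205251_at) minus BMAL1 was -3.83, -4.07 and -4.17 in DMSO and -2.17, -2.86 and -2.70 in SRPIN803. The size of such a difference depends on the probes and only its shift between arrays can be read. Since both members of each difference were called in the same comparison, the shift follows from their changes and is not separate evidence.

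**Figure D3:**
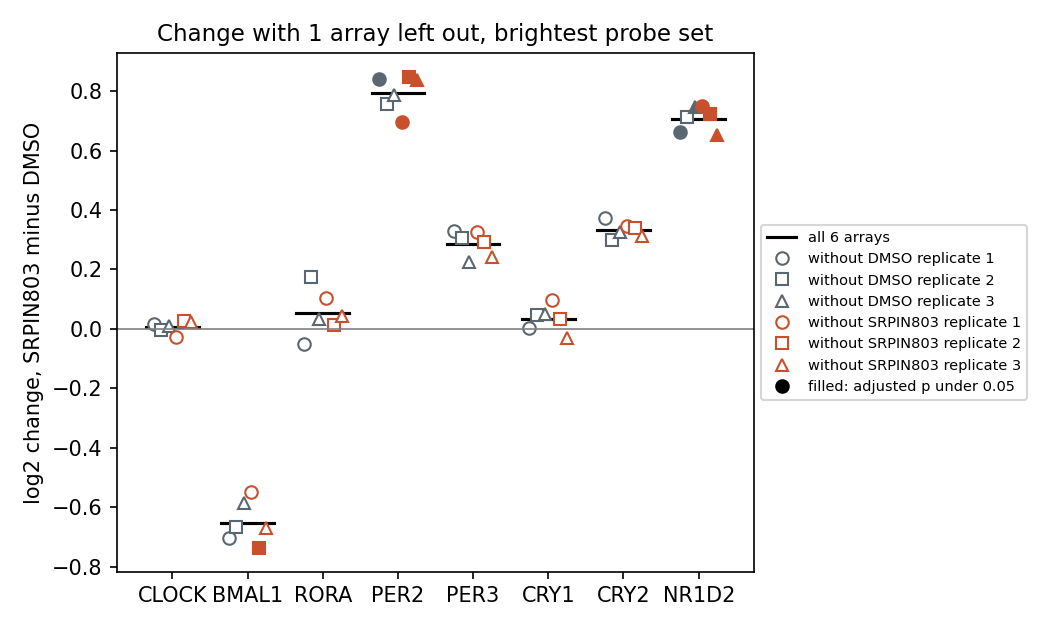
Log2 change of the brightest probe set of each clock gene with all 6 arrays (black line) and with 1 array left out (symbols by array, grey for DMSO and orange for SRPIN803), filled where the adjusted p was under 0.05. BMAL1 keeps a change of -0.74 to -0.55 but is filled in 1 of 6 fits, PER2 keeps 0.70 to 0.85 and is filled in 4, and NR1D2 keeps 0.65 to 0.75 and is filled in 5.

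Among all probe sets the clock members spanned nearly the whole range of levels. The 3 called ones lay at the 85.7 (BMAL1), 55.1 (PER2) and 86.8 (NR1D2) percentiles of mean level. CRY1 was at the 95.2 percentile, while the dimmest RORA and PER3 probe sets were at the 0.449 and 6.33 percentiles.

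**Figure D4:**
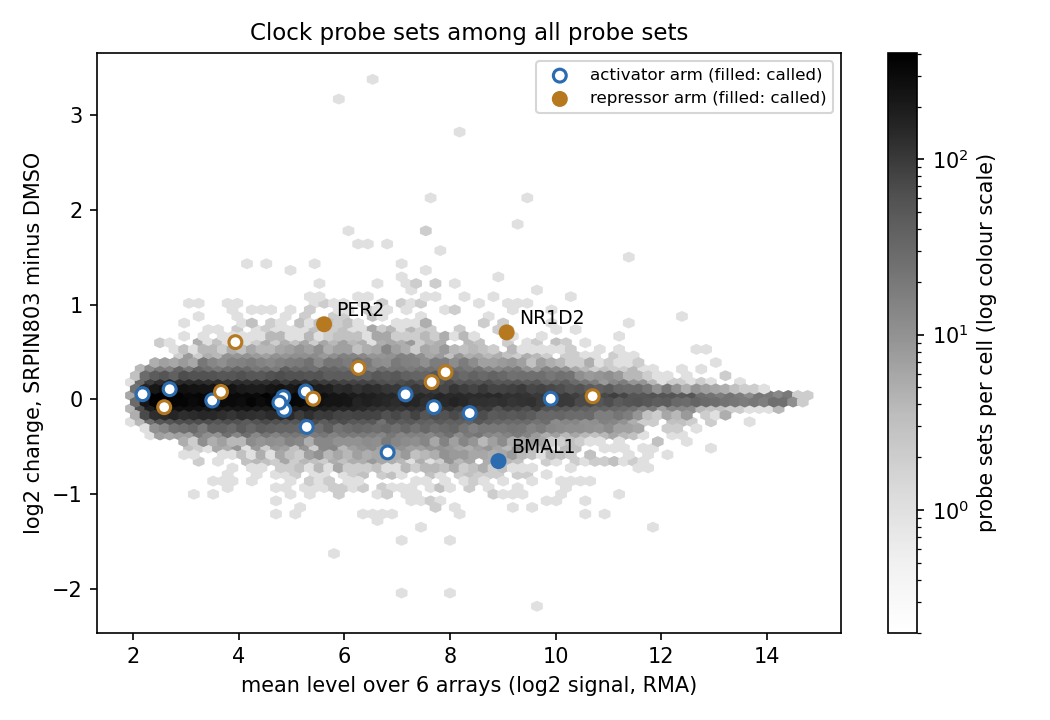
Log2 change (SRPIN803 minus DMSO) against mean log2 level for all 54613 probe sets (grey cells, darker for more probe sets on a log scale) and the 24 clock probe sets (blue activator arm, ochre repressor arm, filled where called). PER2 at 0.79 and NR1D2 at 0.71 sit above the dense band and BMAL1 at -0.65 below it, and most other clock points lie inside it.

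Partners of the core loop, 12 genes such as the paralogs of CLOCK and RORA and the D-box factors, had 11 members measured by 30 probe sets. Of these 2 were called higher and 0 lower (7 and 2 at an unadjusted p under 0.05), where 1.19% and 1.03% of all probe sets were called (8.17% and 7.47% unadjusted). The median log2 change was 0.10. TEF, an activator at D-boxes, read 6.30, 5.93 and 5.70 in DMSO and 7.04, 6.70 and 6.90 in SRPIN803 on 225840_at (0.90 ± 0.16, limma's adjusted p = 0.0305). BHLHE41, a repressor that competes at E-boxes, read 9.09, 9.17 and 9.14 in DMSO and 9.67, 9.65 and 9.96 in SRPIN803 on 221530_s_at (0.63 ± 0.10, adjusted p = 0.0219). Neither had overlapping groups. The other 3 probe sets of TEF, all dimmer, were at -0.08 to 0.10, and the other 3 of BHLHE41 at -0.04 to 0.14. Among the 6 fits with 1 array left out, TEF was called in 2, those without DMSO replicate 1 and without SRPIN803 replicate 2 (adjusted p up to 0.128 in the others). BHLHE41 lost its call without any 1 DMSO replicate (up to 0.0952).

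Regulators of clock proteins, 18 genes for kinases, ubiquitin ligases, corepressors and NAD enzymes, had 15 members measured by 57 probe sets. None was called by limma, and 5 had a higher and 7 a lower mean at an unadjusted p under 0.05. Over all probe sets 2.22% were called, and 8.17% were higher and 7.47% lower unadjusted. The counts for the list are too small to be read as a departure from those shares. The smallest p-values belonged to CSNK1D, a kinase of PER proteins, at -0.40 ± 0.08 on 207945_s_at (adjusted p = 0.0566), and NAMPT, an NAD salvage enzyme, at -0.52 ± 0.12 on 243296_at (adjusted p = 0.0689). Neither is the brightest probe set of its gene. The brightest were at -0.16 ± 0.07 for CSNK1D (208774_at) and -0.12 ± 0.08 for NAMPT (217739_s_at).

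Input genes, 14 targets of the glucocorticoid receptor and of CREB, stood for pathways that can induce PER genes acutely. Of their 37 probe sets 1 was called higher and 1 lower (4 and 3 at an unadjusted p under 0.05), with a median log2 change of 0.07. The called shares were 2.70% higher and 2.70% lower, from 1 probe set each, beside 1.19% and 1.03% of all probe sets (8.17% and 7.47% unadjusted). These counts too are too small to be read as a departure from the shares over all probe sets. KLF9, a glucocorticoid target, read 8.45, 8.51 and 8.47 in DMSO and 7.87, 7.52 and 7.85 in SRPIN803 on 203542_s_at. It fell by 0.73 on the log2 scale (SE 0.10, limma's adjusted p = 0.0162), and its brightest probe set, 203543_s_at, was at -0.66 ± 0.16 (adjusted p = 0.0795). PPARGC1A, a coactivator of ROR receptors, rose by 0.64 ± 0.12 on 219195_at (adjusted p = 0.0459), a dim probe set with a mean level of 4.36. KLF9 lost the call without any 1 DMSO replicate (adjusted p up to 0.0821), and PPARGC1A in all fits with 1 array left out but that without SRPIN803 replicate 2 (up to 0.155). PPARGC1A also lost its call with arrays centred on their median (adjusted p = 0.0519), with cyclic loess (0.0514) and with the actin covariate (0.0652).

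**Figure D5:**
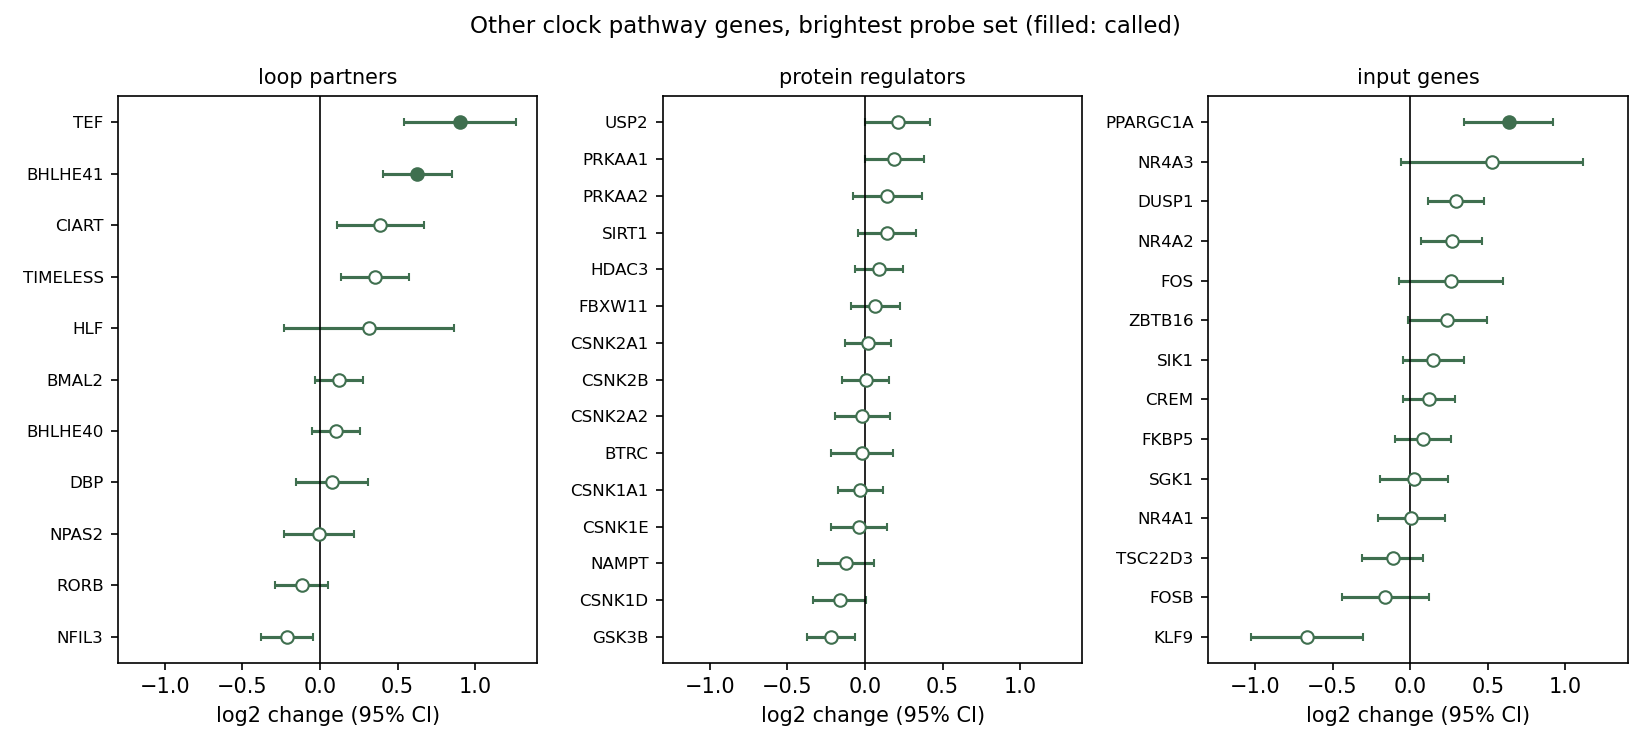
Log2 change (SRPIN803 minus DMSO) with 95% confidence interval of the brightest probe set of each measured gene of the 3 pathway lists, filled where called. TEF at 0.90, BHLHE41 at 0.63 and PPARGC1A at 0.64 are filled; KLF9 is open at -0.66 because its called probe set is not its brightest.

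The genes whose brightest probe sets followed PER2 most closely over the 6 arrays were TMEM38B, ASB16-AS1 and SDHAF4, with Pearson's r of 0.995, 0.994 and 0.993 among 2717 genes with a standard deviation of at least 0.2. Those closest to BMAL1 were FAM83H, FIBIN and SSX2B, with r of 0.997, 0.997 and 0.996. The 6 arrays fall into 2 groups, and these values are given as a description. SRPIN803 minus DMSO was 0.39 to 0.56 (log2) in the first 3 genes and -0.56 to -0.45 in the others. FIBIN and SSX2B were not called (limma's adjusted p = 0.0526 and 0.0525). With 1 array left out TMEM38B, SDHAF4 and FAM83H were called in 0 of 6 fits, and ASB16-AS1, FIBIN and SSX2B in 1 each.

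The median log2 signal per array was 5.25 to 5.27. Pairs of arrays correlated (Pearson, over probe sets) at 0.9957 to 0.9977 inside a group and 0.9940 to 0.9961 across groups, and none were identical. Of the markers of the retinal pigment epithelium, MITF and OTX2 lay at the 93.5 and 94.5 percentiles of level, and RPE65 and LRAT at the 2.11 and 10.6 percentiles. The keratins KRT18 and KRT8 were at the 99.7 and 98.4 percentiles, and the fibroblast marker COL1A1 at the 94.3 percentile. The leukocyte marker PTPRC was at the 10.4 percentile and the endothelial markers CDH5 and PECAM1 at the 7.47 and 64.1 percentiles. By limma 0 of the 50 marker probe sets were called, where 2.22% of all probe sets were. At an unadjusted p under 0.05, 3 of 21 pigment epithelium probe sets were higher and 0 lower, while 2 of 16 fibroblast and 1 of 5 leukocyte probe sets were lower and 0 higher (8.17% higher and 7.47% lower over all). None of the 2 keratin and 6 endothelial probe sets had such a p. The part of these markers in the clock results was not tested. All 6 arrays come from 1 cell line, so the markers are read here as its expression and not as shares of cell types.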

How the data were processed

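Per the labels' protocols, ARPE-19 cells were treated for 4 h and RNA from 6 samples was hybridised to Affymetrix 3' arrays, with groups from the agent label and replicate numbers from the titles. The deposited table gives log2 values for each probe set on each array; the submitters' processing notes name RMA, without software or options. RMA equalises the arrays' distributions, which hides any change in total RNA, and compresses changes of dim probe sets. No read depth exists, and 3 arrays per group limit the precision.

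Of 54675 probe sets 62 controls were left out. The platform annotation named 1 gene for 41091 of the rest, several for 1801 and none for 11721. All 54613 were fitted with limma 3.58.1 in R 4.3.3 (group only, eBayes, two-sided, Benjamini-Hochberg over all probe sets, no level filter), and diffSplice compared probe sets within genes. An exact permutation test of 3 against 3 cannot go below p = 0.1 and was not used. The tests were also run on simulated data with independent noise between arrays, which covers no batch or pairing. The outcome of that run is not given here. Every clock probe set is reported. From each pathway list up to 4 called members are named, or 2 with the smallest p. The members and lists were chosen with earlier results of these data known. Motifs were searched by exact match in RefSeq windows. Plots used matplotlib 3.10.9 in Python 3.11.15. List members that share every probe set with another gene, or that the annotation does not name, were not analysed here. Alternatives covered the replicate block, each array left out, level filters, the brightest probe set, normalization, the variance model and array weights. The actin covariate was added after seeing the data.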

Additional observations from a re-analysis of the deposited data

How the results depend on the processing

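The log2 changes of PER2 (205251_at), NR1D2 (225768_at) and BMAL1 (209824_s_at) kept their direction in every alternative run, with ranges of 0.70 to 0.85, 0.65 to 0.75 and -0.74 to -0.55. Their calls depended on the arrays. Over all probe sets 1214 were called, and 215 to 716 with 1 array left out; the clock probe sets and the clock genes called higher then numbered 0 to 3, and those called lower 0 to 1. The count of all calls was 2667 among probe sets of at least the median level, 2206 above the 75th percentile and 2997 with trend and robust variance estimates. Clock probe sets called lower numbered 2 above the median level, where 1256 of 27307 probe sets were. They numbered 2 with trend and robust estimates and 2 with the actin covariate, where 1425 and 505 of 54613 were. Clock probe sets called higher numbered 4, of 4 genes, with trend and robust estimates, where 1572 of 54613 were. Those were CRY2 (212695_at, adjusted p = 0.0399) and PER3 (1569701_at, 0.0369) beside PER2 and NR1D2. Probe sets of 1 clock gene, PER2, moved apart with no level filter, where 1 of the pair is dim (208518_s_at, 24.5 percentile of level). The share of all genes that did so with no filter is not given here, so that call cannot be read against it. With the replicate block 304 probe sets were called, 2 clock probe sets higher and 0 lower (BMAL1, adjusted p = 0.0633), and TEF, BHLHE41, KLF9 and PPARGC1A lost their calls (0.0540, 0.0673, 0.0640 and 0.106). Deviations of same-numbered arrays correlated at 0.14, -0.07 and 0.07, and those of differently numbered arrays at -0.17 to 0.12. With 3 arrays per group these values cannot tell whether same-numbered arrays shared a culture or batch, which the labels leave unsaid. Signs turned only in values that were not called. Centring on the median gave -0.0050 for CLOCK 227531_at and -0.0048 for PER3 1555131_a_at, which was at -0.0025 with cyclic loess. With 1 array left out the ranges were -0.0286 to 0.0255 (CLOCK 227531_at), -0.13 to 0.11 (CLOCK 217563_at), -0.0490 to 0.17, -0.0631 to 0.21, -0.19 to 0.27 and -0.19 to 0.13 (RORA 226682_at, 236266_at, 210426_x_at and 239550_at), -0.0197 to 0.14 (PER2 208518_s_at), -0.0679 to 0.10 (PER3 1555131_a_at), -0.0319 to 0.10 (CRY1) and -0.0353 to 0.50 (NR1D2 209750_at). The cause of these shifts was not tested. The dimmest probe sets of RORA (241760_x_at) and PER3 (1555130_at) kept their sign, while CRY1, at the 95.2 percentile of level, did not. Apart from these shifts, probe sets near the lowest signals are limited by signal over background.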
